A study of Homo sapiens with 2 samples.

Results

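Transcripts of the DNA repair gene families were compared between 2 RNA-seq libraries of HCT116, an established human colorectal carcinoma cell line, 1 given a control siRNA and 1 a PHF5A siRNA. PHF5A belongs to SF3b, the splicing complex that recognises the intron branch point, and the study asked which transcripts depend on it in colorectal cancer cells. The members were taken by symbol: FANCA to FANCM, BRCA1, BRCA2, PALB2, the RAD genes with a number and at most a letter from A to D, XRCC1 to XRCC6, ERCC1 to ERCC8, the numbered MSH, MLH and PMS genes, PARP1 to PARP4, ATM, ATR, CHEK1 and CHEK2. The rule found 57 of 50867 gene rows, and 53 of these are described and counted below, all 53 protein-coding and all 53 carrying a DNA repair, recombination or damage term in the deposited annotation. FANCD2 and RAD54L fall outside this naming rule and are given with the other genes of their pathways.

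Each group had a single library, so none of the differences could be set against replicates and no p-value is given. The labels describe both samples as HCT116 cells and give neither the siRNA sequence nor the time after transfection. Total counts were 26552789 (control) and 25897412 (knockdown). PHF5A itself had 367 and 91 counts, or 9.07 and 2.31 FPKM (fragments per kilobase of gene, corrected for library size), a ratio of 0.254 (interval 0.200 to 0.321). Ratios are knockdown over control in CPM (the count as a share of its library), with a 95% exact interval that covers counting error only. Protein-coding genes with at least 20 counts in the 2 libraries together had a median ratio of 0.848, and the protein-coding share of the counts was 78.4% in the control library against 70.2% after knockdown. Ratios of the members are therefore read against 0.848 as well as against 1. The epithelial keratins KRT8, KRT18 and KRT19 were at 420, 526 and 1046 FPKM in the control library and at 370, 598 and 1032 FPKM in the knockdown library, while KRT20 and CDX1 had 0 counts in both. Of the other markers of colon epithelium, EPCAM had 412 and 501 counts (1.25), CDH1 913 and 843 (0.947) and CDX2, an intestinal transcription factor, 822 and 367 (0.458; 0.404 to 0.518). VIL1 and LGR5 had 0 and 1 counts each and CEACAM5 0 and 6, so that 6 of the 11 colon markers reached 1 FPKM and 5 did not. The control library also held heart muscle transcripts that the knockdown library nearly lacked. The 16 heart markers summed to 99861 and 325 counts (0.376% and 0.00125% of the library), 15 of them were lower by 2-fold or more, and MYH7, PLN, NPPA and RYR2 had 0 counts in the knockdown library. Some fibroblast markers were lower too, and the 6 on the list summed to 2785 and 875 counts. COL3A1 had 959 and 31, COL1A2 352 and 7, LUM 60 and 0 and COL1A1 1362 and 786. DCN (8 and 9) and PDGFRB (44 and 42) were nearly level. The 4 endothelial markers summed to 316 and 152 counts, of which VWF took 284 and 141, and the 5 blood markers to 536 and 391. In the blood sum CD68 took 518 and 361, PTPRC had 6 and 1, HBB 2 and 1, HBA1 9 and 25 and HBA2 1 and 3. Since fewer transcripts in the cells and fewer cells of another type cannot be told apart in bulk RNA, these differences stand beside every lower member below, and their part in those ratios was not tested.

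Cells repair DNA through pathways that divide the work by lesion. Mismatch repair corrects replication errors, nucleotide excision repair removes bulky adducts, single-strand break repair seals nicks, and double-strand breaks are closed either by end joining or by homologous recombination with the sister chromatid. The Fanconi anemia proteins unhook crosslinked strands and pass them to recombination, and checkpoint kinases halt the cell cycle meanwhile. HCT116 is widely used in this field because it is deficient in mismatch repair.

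Most members were under 1 FPKM, as were most protein-coding genes. Of the 53, 22 reached 1 FPKM in the higher library, 31 did not, and 51 had at least 20 counts in the 2 libraries together. Of all 19690 protein-coding genes, 7677 reached 1 FPKM in the higher library and 13246 had at least 20 counts. The median level of the members was 0.556 FPKM in the control library and 0.506 FPKM in the knockdown library. Over all protein-coding genes it was 0.407 and 0.305 FPKM. XRCC6, a subunit of the Ku heterodimer that caps broken ends, stood far above the rest with 16656 and 13487 counts, or 124 and 103 FPKM. ERCC2 (24.9 and 14.6 FPKM), ERCC1 (14.9 and 16.5), FANCG (13.1 and 6.29) and PARP1 (13.01 and 8.49) followed in the control library. At the other end, BRCA2 had 27 and 33 counts, FANCB had 11 and 1, and RAD9B had 1 and 0, under the floor of 3 counts in both, so that no ratio is given for RAD9B. The 53 members together took 51040 counts (0.192%) of the control library and 39152 (0.151%) of the knockdown library.

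**Figure D1:**
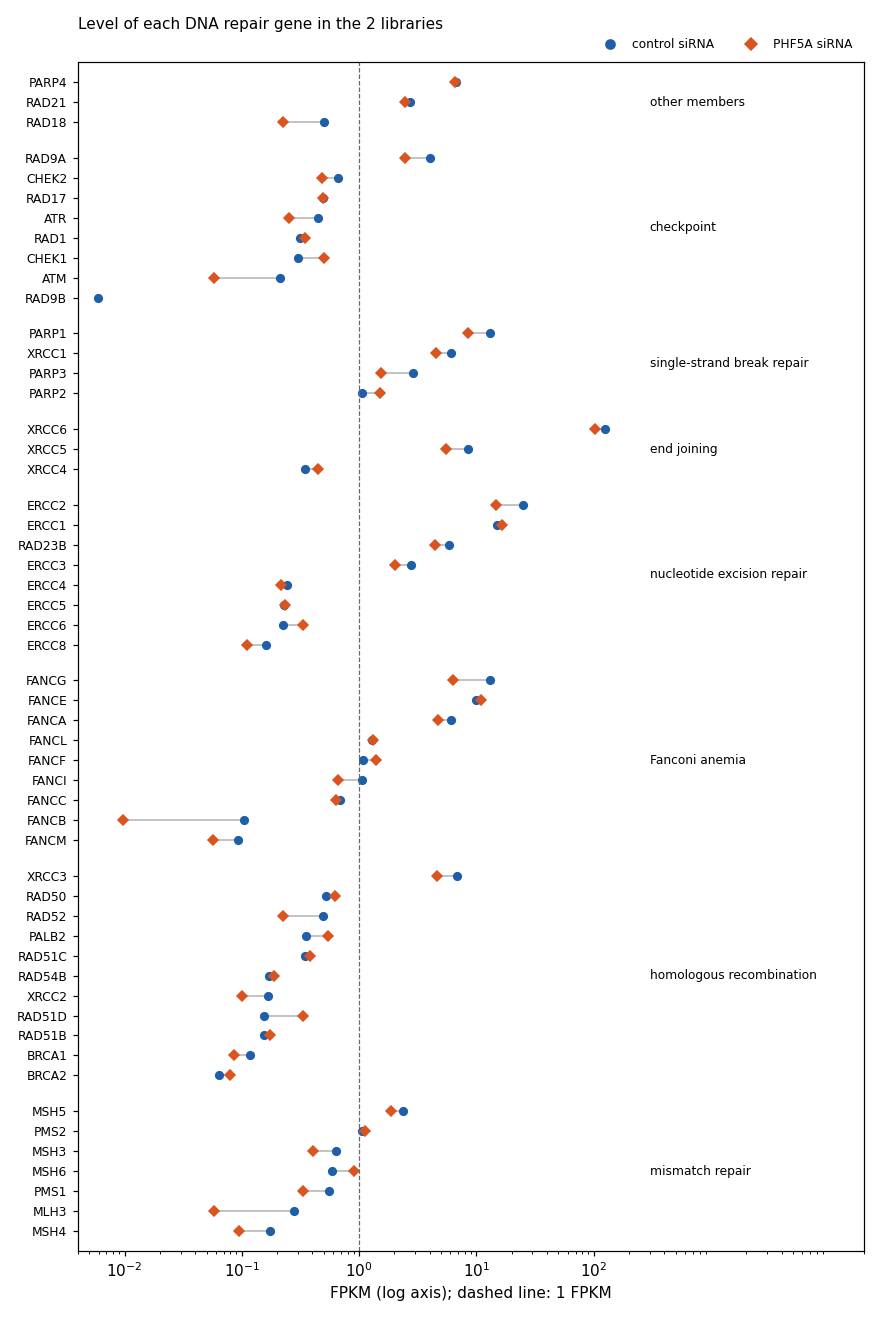
FPKM of each of the 53 members on a log axis in the control library (circles) and the PHF5A siRNA library (diamonds), 1 library each, grouped by pathway. XRCC6 lies near 100 FPKM in both, most recombination and mismatch repair genes lie under 1 FPKM, and RAD9B has no diamond because its knockdown count was 0.

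The members lay on both sides of the background and few were far from it. On the log2(FPKM + 1) scale, 0 of the 22 members of at least 1 FPKM passed 2-fold in either direction, by size alone and with no test. Among all 8957 genes of that level, 2.53% passed it upward and 6.2% downward. The median log2 ratio was -0.30 for these 22 members and -0.15 for all 8957 genes, with an SD over genes of 0.32 and 0.63. These counts depend on the scaling: over all genes 227 were higher and 555 lower as deposited, 345 and 358 after median centring, 411 and 379 after upper-quartile scaling, 336 and 423 when scaled to protein-coding counts, and 107 and 1405 after rescaling to TPM. The median over all genes was 0.06 with upper-quartile scaling, -0.02 with protein-coding scaling and -0.47 with TPM.

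Because 31 of the members lie under 1 FPKM, their CPM ratios were also counted with no pseudocount, a choice made after the values were seen. Of the 51 members with at least 20 counts, 5 were at least 2-fold lower (MLH3, ATM, RAD18, RAD52 and FANCG) and 1 at least 2-fold higher (RAD51D). The same rule called 18.7% of 13246 protein-coding genes lower and 5.62% higher. Among protein-coding genes under 1 FPKM, 26.4% were lower and 7.88% higher, against 4 and 1 of 29 members. Among those of at least 1 FPKM, 13.2% were lower and 3.97% higher, against 1 and 0 of 22 members. Intervals lay wholly below the protein-coding median of 0.848 for 18 members and wholly above it for 13, and held it for 20. Of all protein-coding genes, 35.8% had an interval below that median and 34.2% above it. Both shares of the members are thus close to or under the background.

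**Figure D2:**
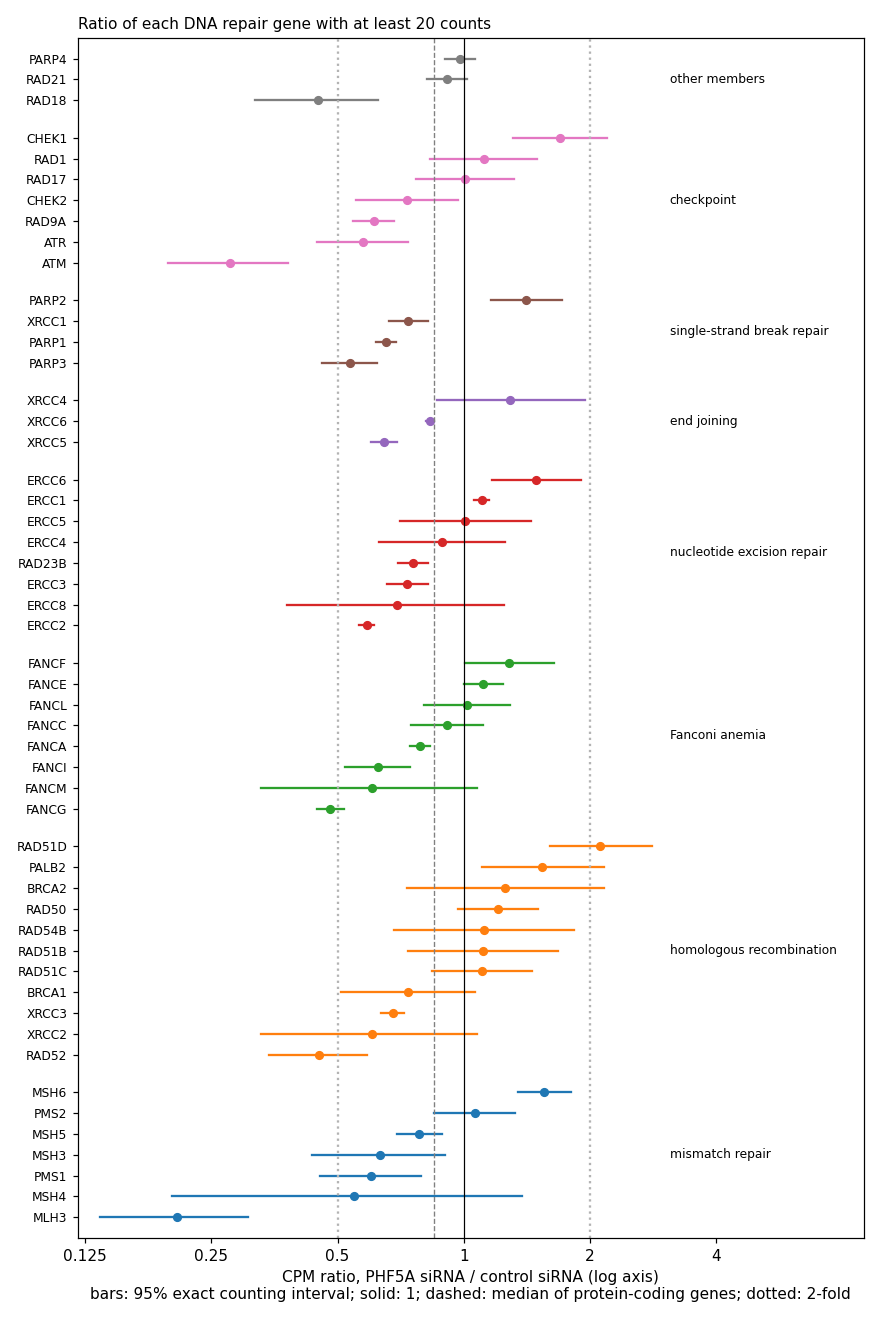
CPM ratio of the knockdown to the control library on a log axis for the 51 members with at least 20 counts, with 95% exact counting intervals. The solid line marks 1, the dashed line the protein-coding median of 0.848 and the dotted lines 2-fold; MLH3 at 0.206 is lowest and RAD51D at 2.12 highest.

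The start-site sequences of 4 members are printed here so that these genes, named below, can be seen at their promoters. The RefSeq promoter table (GRCh38.p14, 250 bases before to 50 after the start) matched 48 of the 53 members by symbol and not FANCI, PARP4, RAD21, RAD54B or XRCC5. Shown are FANCG, MLH3 and ATM, which were among the lowest ratios, and MSH6, whose ratio was higher than 1. They are not the extremes on each side. RAD51D and CHEK1 had higher ratios than MSH6, and RAD18 and RAD52 had lower ratios than FANCG. Capitals mark E2F letters (TTTCCCGC or TTTGGCGC), the cell cycle element CHR (TTTGAA) and the NF-Y box (CCAAT), on either strand, with no overlap among them in the 4 shown. FANCG is at chr9:35079893-35080192 (minus strand), MLH3 at chr14:75051418-75051717 (minus), ATM at chr11:108222817-108223116 (plus) and MSH6 at chr2:47782895-47783194 (plus).
FANCG: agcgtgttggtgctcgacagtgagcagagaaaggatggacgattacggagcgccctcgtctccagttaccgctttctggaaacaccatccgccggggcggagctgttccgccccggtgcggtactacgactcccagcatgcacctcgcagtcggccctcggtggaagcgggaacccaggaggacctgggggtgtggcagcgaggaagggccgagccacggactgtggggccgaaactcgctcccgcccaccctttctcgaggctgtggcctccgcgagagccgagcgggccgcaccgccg
MLH3: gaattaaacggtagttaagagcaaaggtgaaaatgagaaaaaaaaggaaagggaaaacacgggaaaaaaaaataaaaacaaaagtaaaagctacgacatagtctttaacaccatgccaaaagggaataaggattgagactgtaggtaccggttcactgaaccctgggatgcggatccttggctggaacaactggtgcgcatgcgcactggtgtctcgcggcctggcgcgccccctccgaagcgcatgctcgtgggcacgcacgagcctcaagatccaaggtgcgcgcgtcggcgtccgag
ATM: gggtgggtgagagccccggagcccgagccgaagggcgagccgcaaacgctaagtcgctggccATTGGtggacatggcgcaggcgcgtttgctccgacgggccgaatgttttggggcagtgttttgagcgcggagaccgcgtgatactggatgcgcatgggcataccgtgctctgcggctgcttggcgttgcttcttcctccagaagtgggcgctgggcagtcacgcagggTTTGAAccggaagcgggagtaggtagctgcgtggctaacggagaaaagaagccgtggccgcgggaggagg
MSH6: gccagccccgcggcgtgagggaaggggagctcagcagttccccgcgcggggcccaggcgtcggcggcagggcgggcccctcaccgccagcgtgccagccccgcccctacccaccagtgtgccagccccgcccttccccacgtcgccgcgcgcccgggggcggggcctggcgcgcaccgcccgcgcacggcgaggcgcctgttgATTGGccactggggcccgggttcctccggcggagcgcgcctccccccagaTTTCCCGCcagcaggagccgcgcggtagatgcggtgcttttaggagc
FANCG and MLH3 have none of these letters in the window, ATM has CHR and NF-Y letters, and MSH6 has E2F and NF-Y letters. Of the members not shown, RAD51D, RAD18 and RAD52 have none of them and CHEK1 has NF-Y letters. E2F letters were found in 5 of the 48 promoters (10.4%; FANCC, MSH3, MSH6, XRCC2 and XRCC6) and in 2.31% of 27305 promoters in the table. CHR letters were in 10.4% of the members' promoters and 15.4% of all, and NF-Y letters in 43.8% and 35.7%. The 5 genes with E2F letters had a median log2 CPM ratio of -0.27 and the 41 counted members without them -0.35. The 4 with CHR letters were at -0.39 and the 42 without at -0.31. The 20 with NF-Y letters were at -0.42 and the 26 without at -0.06, given as a description of these genes. Such splits were not made over all genes, and the background promoters were not limited to protein-coding genes. Median GC of the window was 63.8% for the members and 58.3% for all promoters, and its part in these shares was not tested.

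Mismatch repair begins with MutS heterodimers that read the mismatch and MutL heterodimers that cut the new strand. MLH3, a MutL subunit with a role in meiotic crossovers, had 154 and 31 counts, a ratio of 0.206 (0.136 to 0.305), the lowest of the 51 counted members. PMS1 had 145 and 85 counts, a ratio of 0.601 (0.454 to 0.791). ORMDL1, which overlaps 1.89% of its exon bases on the opposite strand, had 75 and 93 counts, and the summed ratio of 0.830 (0.677 to 1.02) holds the protein-coding median. PMS2, which carries the nicking activity of the main MutL enzyme, had 161 and 167 counts (1.06; 0.851 to 1.33), and its interval does not overlap that of MLH3. PMS2 has many near-identical copies that may share its reads, among them PMS2CL (226 and 142 counts) and PMS2P1 (116 and 94), so its value is uncertain.

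The MutS genes described here lay on both sides of 1, but only MSH6 had an interval clear of the protein-coding median. MSH6, the subunit for single mismatches, had 315 and 478 counts, or 0.583 and 0.907 FPKM, a ratio of 1.56 (1.35 to 1.80). FBXO11, which overlaps 16.2% of the exon bases of MSH6 on the opposite strand, had 237 and 276 counts, and the summed ratio was 1.40 (1.25 to 1.57). MSH3, the subunit for larger loops, had 83 and 51 counts (0.630; 0.436 to 0.904), an interval that holds the protein-coding median. The meiotic genes MSH4 (15 and 8 counts) and MSH5 (591 and 452) had ratios of 0.547 and 0.784. Of the 7 mismatch repair members, 2 intervals lay below the protein-coding median, 2 above it and 3 held it. The only 2 of at least 1 FPKM, MSH5 and PMS2, had log2(FPKM + 1) ratios of -0.24 and 0.05, and that of PMS2 is below 0 after TPM rescaling (-0.18).

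Homologous recombination resects the break and copies the lost sequence from the sister chromatid. RAD52, an annealing factor, had 184 and 81 counts, a ratio of 0.451 (0.343 to 0.589). PALB2, the bridge between BRCA1 and BRCA2, had 62 and 93 counts, a ratio of 1.54 (1.10 to 2.16). BRCA1 had 75 and 54 counts (0.738; 0.510 to 1.06) and BRCA2 27 and 33 (1.25; 0.731 to 2.17), and neither could be told from 1 or from 0.848 at this depth. RAD50, the bridging ATPase of the MRN complex, had 158 and 186 counts (1.21; 0.971 to 1.502).

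RAD51B, RAD51C, RAD51D, XRCC2 and XRCC3, which form small complexes that help strand exchange, differed among themselves. RAD51D had 77 and 159 counts, or 0.156 and 0.330 FPKM, a ratio of 2.12 (1.60 to 2.82) the highest of the 51 counted members. With the read-through row RAD51L3-RFFL (9 and 6 counts) added, the ratio was 1.97. Its complex partners RAD51B (48 and 52 counts), RAD51C (104 and 112) and XRCC2 (34 and 20) had ratios of 1.11, 1.10 and 0.603, each with an interval that holds 1. XRCC3, which pairs with RAD51C, had 2441 and 1613 counts (6.87 and 4.65 FPKM), a ratio of 0.678 (0.636 to 0.722). KLC1 overlaps 76.7% of the exon bases of XRCC3 on the opposite strand with 339 and 395 counts, and the summed ratio was 0.741. RAD54B, a chromatin remodeller of the pathway, had 34 and 37 counts. Over the 11 recombination members, 2 intervals lay below 0.848, 3 above it and 6 held it, and 10 of the 11 were under 1 FPKM.

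The Fanconi anemia core complex is a ubiquitin ligase that marks the FANCI and FANCD2 clamp at crosslinks. FANCG, a scaffold of the core, had 2226 and 1042 counts, or 13.1 and 6.29 FPKM, a ratio of 0.480 (0.445 to 0.517). Its log2(FPKM + 1) ratio of -0.95 lies just inside the 2-fold limit, which it passes in CPM. FANCA, which FANCG holds in the complex, had 2926 and 2246 counts, a ratio of 0.787 (0.745 to 0.832). FANCI had 335 and 204 counts (0.624; 0.522 to 0.745). FANCE (671 and 729 counts; 1.11) and FANCF (123 and 154; 1.28) were above the protein-coding median, and FANCL, the ligase subunit, had 145 and 144 counts (1.02; 0.803 to 1.29). FANCE, FANCF and FANCL have log2 ratios above 0 as deposited and below 0 after TPM rescaling (-0.24, -0.04 and -0.23). FANCC (217 and 193) and FANCM (34 and 20), the translocase that brings the core to DNA, had intervals that hold 1. FANCB, another core subunit, had 11 and 1 counts, a ratio of 0.0932 with a wide interval of 0.00217 to 0.641. Of the 8 counted members, 3 intervals lay below 0.848 and 2 above it and 3 held it, and core complex genes were on both sides.

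Nucleotide excision repair starts when XPC, the damage sensor, binds a distorted helix. RAD23B, which stabilises XPC, had 1302 and 961 counts, a ratio of 0.757 (0.696 to 0.823). XPC, outside the naming rule, had 185 and 238 counts, a ratio of 1.32 (1.08 to 1.61). Of the 8 members of this pathway, 3 intervals lay below the protein-coding median, 2 above it and 3 held it.

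The helicases of TFIIH, which open the DNA around the lesion, were lower. ERCC2 had 5855 and 3350 counts, or 24.9 and 14.6 FPKM, a ratio of 0.587 (0.562 to 0.612). ERCC3 had 770 and 551 counts, a ratio of 0.734 (0.656 to 0.820). GTF2H4, the TFIIH subunit that anchors ERCC3, had 2204 and 886 counts, a ratio of 0.412 (0.381 to 0.446), while CDK7, the kinase of TFIIH, had 179 and 180 (1.03; 0.834 to 1.28). Of the incision nucleases, ERCC1 had 4254 and 4582 counts (1.10; 1.06 to 1.15), and its partner ERCC4 had 75 and 65 (0.889; 0.627 to 1.26). ERCC1 overlaps CD3EAP over 28.6% of its exon bases on the opposite strand (1169 and 537 counts), the summed ratio was 0.968, and the log2 ratio of ERCC1 turned to -0.26 after TPM rescaling. ERCC5, the other nuclease, had 66 and 65 counts (1.01), and with BIVM, which overlaps it on the same strand (81 and 20 counts), the summed ratio was 0.593. Of the genes that couple repair to transcription, ERCC6 had 117 and 170 counts (1.49; 1.17 to 1.90) and ERCC8 had 31 and 21 (0.695; 0.379 to 1.25). The pseudogene GNL3LP1 lies within 28.3% of the exon bases of ERCC8 and had 21 and 2 counts, with a summed ratio of 0.454.

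In end joining, 1 of 3 intervals lay below the protein-coding median, 1 above it and 1 held it, and in single-strand break repair 3 of 4 lay below it and 1 above. XRCC6 had a ratio of 0.830 (0.812 to 0.849), close to the protein-coding median. XRCC5, its Ku partner, had 1971 and 1242 counts (8.53 and 5.51 FPKM), a ratio of 0.646 (0.601 to 0.694), and the intervals of the 2 Ku subunits do not overlap. XRCC6 was 14.5-fold above XRCC5 in FPKM in the control library and 18.6-fold in the knockdown library. XRCC4, the scaffold of the ligase, had 46 and 58 counts (1.29; 0.863 to 1.95). PARP1, the main sensor of strand breaks, had 3365 and 2143 counts, a ratio of 0.653 (0.618 to 0.690). XRCC1, the scaffold that PARP1 recruits, had 849 and 611 counts (0.738; 0.664 to 0.820), and PARP3 had 516 and 269 (0.535; 0.460 to 0.621). PARP2, the second sensor, was higher, with 182 and 250 counts (1.41; 1.16 to 1.71). PARP2 starts beside RPPH1, the RNase P RNA on the opposite strand, whose main row had 695106 and 961492 counts, a ratio of 1.42. A second RPPH1 row overlaps 104 exon bases of PARP2 and had 18 and 42 counts. Whether reads of RPPH1 entered the count of PARP2 was not tested.

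Checkpoint signalling runs from ATM to CHEK2 at double-strand breaks and from ATR to CHEK1 at stalled forks. ATM had 182 and 49 counts, or 0.211 and 0.0582 FPKM, a ratio of 0.276 (0.197 to 0.380). NPAT, which starts beside ATM on the opposite strand and overlaps 0.597% of its exon bases, had 116 and 91 counts. The summed ratio, which takes in all counts of NPAT, was 0.482. ATR had 182 and 102 counts, a ratio of 0.575 (0.446 to 0.736), and its interval does not overlap that of ATM. CHEK2 had 126 and 90 counts (0.732; 0.552 to 0.967), an interval that holds the protein-coding median. CHEK1 was higher, with 98 and 162 counts (0.299 and 0.506 FPKM), a ratio of 1.69 (1.31 to 2.20). CHEK1 shares 1.22% of its exon bases with STT3A on the same strand, an abundant neighbour with 4180 and 2944 counts. The summed ratio of 0.744 is mostly that of STT3A and does not show what CHEK1 did. Of the clamp that helps activate ATR, RAD9A had 813 and 483 counts (0.609; 0.543 to 0.683), while RAD1 had 91 and 99 (1.12; 0.831 to 1.499) and the non-member HUS1 149 and 126 (0.867; 0.678 to 1.11). RAD9A overlaps PPP1CA on the opposite strand over 5.47% of its exon bases, and PPP1CA had 13719 and 13113 counts. Their summed ratio of 0.959 is likewise mostly that of PPP1CA. RAD17, the clamp loader, had 114 and 112 counts.

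Members outside these pathways were RAD18, RAD21 and PARP4. RAD18, the ubiquitin ligase that switches forks to translesion synthesis, had 119 and 52 counts, a ratio of 0.448 (0.317 to 0.626). RAD21, the cohesin ring subunit, had 708 and 629 counts (0.911; 0.817 to 1.02), and PARP4, the vault PARP, had 1155 and 1104 (0.980; 0.902 to 1.07). Their log2(FPKM + 1) ratios of -0.10 and -0.03 are above 0 with median centring, upper-quartile scaling or protein-coding scaling.

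**Figure D3:**
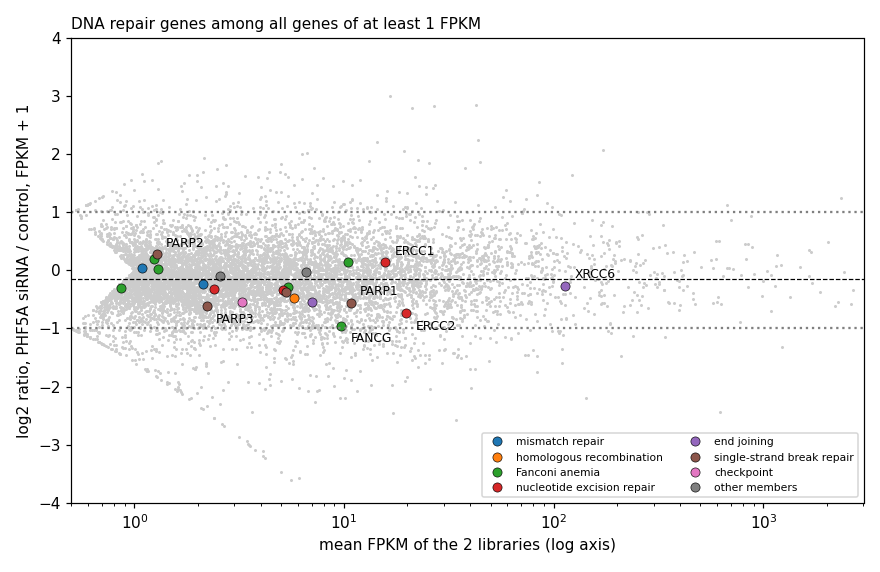
Log2 ratio of FPKM + 1 against the mean FPKM of the 2 libraries (log axis) for the genes of at least 1 FPKM (grey) and the 22 members among them (coloured by pathway). The vertical axis stops at 4 in each direction, the dashed line is the median of -0.15 over all genes, and the members lie between FANCG at -0.95 and PARP2 at 0.28.

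Overlaps with other annotated genes were counted for the members only, so the shares are not read as a trait of repair genes. In GENCODE release 29, 32 of the 53 shared exon bases with another row of the table, 25 with a row on the opposite strand and 10 with a row on the same strand. For 22 members such a row had at least 20 counts. Reads of such pairs may have been split in either direction, since the sources used here do not give the strand setting. Each summed ratio takes in the whole count of the partner, however small the overlap, so it is not a corrected ratio of the member. The read-through row MSH5-SAPCD1 had 25 and 17 counts, and adding it to MSH5 left a ratio of 0.781. Some further sums moved an interval across the protein-coding median. BRCA1 with the lincRNA RP11-242D8.1 (55 and 22 counts) was at 0.599 (0.446 to 0.802) and CHEK2 with HSCB (124 and 72) at 0.664 (0.542 to 0.813), both now below it. RAD1 with BRIX1 (153 and 248) was at 1.46 (1.23 to 1.72) and RAD17 with TAF9 (274 and 301) at 1.09 (0.948 to 1.26), both now above it. FANCA with ZNF276 (870 and 747) was at 0.808, with an upper limit at the median itself.

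The members had more exons, longer genes and less GC than protein-coding genes with at least 20 counts. Their median was 14 exons against 10, a gene span of 51.1 kb against 32.5 kb, and 42.8% GC in the longest transcript against 49.6%. The 17 counted members of 20 or more exons, which include ATM with 64, had a median log2 CPM ratio of -0.61, and all 2209 protein-coding genes of that class had -0.40. The 29 members of 10 to 19 exons had a median of -0.17, and the 4516 protein-coding genes of that class had -0.26. The 3 members of 5 to 9 exons (RAD1, RAD51C and XRCC4) had 0.16 against -0.17, with too few genes for a reading. In the class of 20 or more exons 12 of 17 members lay below the median of all protein-coding genes (-0.24), and in the class of 10 to 19 exons 14 of 29 did. The share of all genes of each class below that median was not counted. Both class medians of all genes, -0.40 and -0.26, were themselves below it. By GC, the 9 members of 54% or more had -0.56 against -0.17, and the 6 of 48 to 54% had -0.40 against -0.29. The 16 of 42 to 48% had 0.05 against -0.28, and the 20 under 42% had -0.15 against -0.27. By gene span, the 3 members under 10 kb had -0.90 against -0.14, and the 8 of 10 to 30 kb had 0.01 against -0.20. Members of 30 to 100 kb (29) and of 100 kb or more (11) had -0.35 and -0.44, against -0.24 and -0.40. The part of each property in these ratios was not tested.

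**Figure D4:**
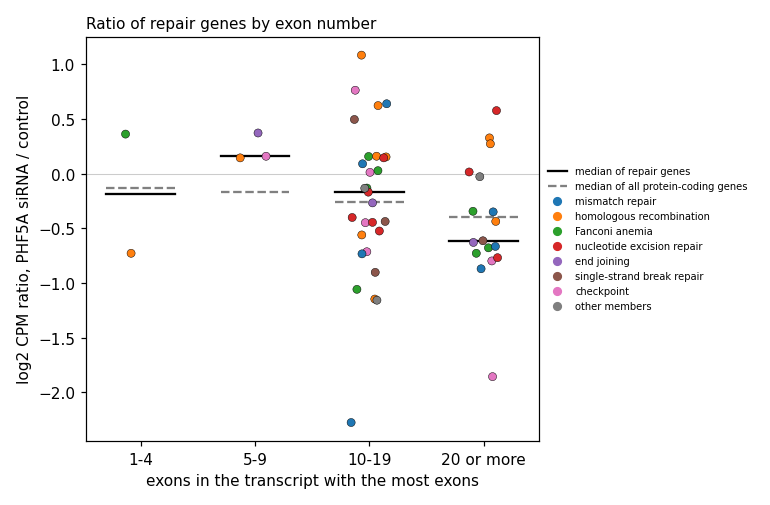
Log2 CPM ratio of the 51 counted members by the exon number of the transcript with the most exons, coloured by pathway, with the median of the members (solid) and of all protein-coding genes with at least 20 counts (dashed). Members of 20 or more exons sit lowest as a class, at a median of -0.61, while the lowest single gene, MLH3, has 13 exons.

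Other genes of the same pathways, from a fixed list of 99 symbols of which 97 were found in 98 rows, were counted in the same way. Of the 48 with at least 1 FPKM, 1 passed 2-fold upward and 3 downward, with a median log2(FPKM + 1) ratio of -0.24. Among all genes of that level, 2.53% passed it upward and 6.2% downward. MGMT, which removes alkyl groups directly from guanine, was the higher gene, with 338 and 872 counts (3.35 and 8.87 FPKM), a ratio of 2.65 (2.33 to 3.01). The lower genes were GTF2H4, DDB2 and CDC25B. DDB2, the ultraviolet damage sensor and a known p53 target, had 2456 and 655 counts (8.19 and 2.24 FPKM), a ratio of 0.273 (0.2505 to 0.298). DDB1, its partner, had 28237 and 21811 counts, a ratio of 0.792. CDC25B, a phosphatase that drives entry into mitosis and that checkpoints restrain, had 14619 and 4246 counts (0.298; 0.288 to 0.308).

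CPM with no pseudocount called 18.7% of protein-coding genes with at least 20 counts at least 2-fold lower and 5.62% higher. It called 12 of these 98 rows lower and 2 higher, both smaller shares. Of those under 1 FPKM, POLK, a translesion polymerase, had 48 and 12 counts (0.256; 0.124 to 0.490), DCLRE1C, the end-processing nuclease Artemis, 55 and 16 (0.298; 0.160 to 0.528), APLF, an end-joining scaffold, 27 and 8 (0.304; 0.119 to 0.687) and BRIP1, a helicase that binds BRCA1, 82 and 31 (0.388; 0.248 to 0.593). In recombination, MUS81, a nuclease for branched DNA, had 894 and 432 counts (0.495; 0.441 to 0.556) and its partner EME1 294 and 143 (0.499; 0.405 to 0.611). RAD54L, a motor protein of strand exchange, had 229 and 170 counts (0.761; 0.620 to 0.932). TOP3A had 1705 and 988 counts (0.594) and BARD1, the partner of BRCA1, 167 and 84 (0.516; 0.392 to 0.674). Of the single-strand binding trimer, RPA1 had 1934 and 1879 counts (0.996; 0.934 to 1.06), RPA2 577 and 369 (0.656) and RPA3 141 and 63 (0.458). In the Fanconi list, UBE2T, the conjugating enzyme of the core, had 262 and 184 counts (0.720), FANCD2 400 and 317 (0.813) and SLX4 244 and 391 (1.64; 1.40 to 1.94). STRA13 had 4437 and 3143 counts (0.726). In mismatch repair the clamp loader subunits RFC2 (1204 and 680 counts) and RFC5 (415 and 196) had ratios of 0.579 and 0.484, whereas RFC4 (102 and 141) had 1.42. In end joining, NHEJ1 had 511 and 275 counts (0.552) and POLL 1474 and 2163 (1.505; 1.41 to 1.61), and PRKDC, the kinase that Ku recruits, had 4745 and 5093 (1.10; 1.06 to 1.15). In base excision MUTYH had 1033 and 575 counts (0.571) and MBD4 136 and 60 (0.452). Among checkpoint genes CDC25C had 295 and 149 counts (0.518), and H2AFX, the histone marked at breaks, had 20520 and 26000 (1.30). MAD2L2, a subunit of the translesion polymerase zeta, had 4071 and 2329 counts (0.587). ATRIP is in 2 rows, of 265 and 239 and of 1 and 37 counts, and the second row is uncertain.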

How the data were processed

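Trizol-extracted RNA of 1 control siRNA and 1 PHF5A siRNA sample of HCT116 cells was made into TruSeq Stranded Total RNA libraries, per the labels' protocols. HISAT2 2.0.4 and Cuffdiff with hg38 (GRCh38) are named in the submitters' processing notes. No annotation release, strand setting or handling of multi-mapped reads is given in the sources used here. The deposited table holds whole-number counts and FPKM per gene for each library, per the file headers. The authors' FPKM carries the same information as the count, since the gene lengths implied by both differed by at most 0.0241% between libraries. Of 50869 lines, 2 (a broken entry) were left out, which left 50867 genes. Of the 57 members found by the rule, 4 are not reported here and enter no count of members.

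FPKM with a pseudocount of 1 gave log2 ratios for genes reaching 1 FPKM in either library, which understates the change of low genes. CPM ratios carry 95% exact conditional binomial (Clopper-Pearson) intervals for counting error only, since reads are not independent molecules. No fold was given where both libraries were at or under a floor of 3 counts. The counting minimum of 20 was chosen after the values were seen. The members, pathway groups, gene lists and alternatives were chosen with earlier results of these data known. Named genes are PHF5A, members past 2-fold, the 3 largest ratios and the highest FPKM per pathway, and other members with their counts; of further pathway genes, those past 2-fold on the FPKM + 1 scale and up to 2 per list, with partners in complexes and genes past 2-fold in CPM added after their values were seen. Gene types, exons and overlaps come from GENCODE release 29, matched by identifier for 50110 rows. Alternatives were pseudocounts of 0.1 and 0.5, no filter, 5 FPKM, 4 scalings, CPM with a prior of 0.5, a 1.5-fold threshold and read-through rows. The procedure was tested on simulated data. Tools were scipy 1.17.1 and pandas 2.3.3 under Python 3.11.15, with figures from matplotlib 3.10.9.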

Additional observations from a re-analysis of the deposited data

How the results depend on the processing

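No paired analysis was possible because each group had 1 library. As deposited, 0 members passed 2-fold in either direction, and the members' median was -0.15 relative to all genes. TPM rescaling gave 2 of 22 lower (FANCG and ERCC2), beside 1405 of all 9664 genes. A pseudocount of 0.1 gave 1 lower (FANCG) and -0.18, a pseudocount of 0.5 gave 1 lower, and CPM with a prior of 0.5 gave 1 lower and -0.18. Among all 8957 genes these settings gave 1129, 825 and 1239 lower, in that order. A 1.5-fold threshold gave 3 lower (FANCG, ERCC2 and PARP3), beside 1631 of 8957 genes. CPM with no pseudocount among members with at least 20 counts, chosen after the values were seen, gave 1 higher and 5 lower. The same rule called 5.62% of protein-coding genes higher and 18.7% lower. The relative median was -0.019 with no filter and -0.22 at 5 FPKM. It stayed below 0 under each of these alternatives, of which the 1.5-fold threshold and median centring cannot change it. Most of them rest on members of at least 1 FPKM. In CPM, the 22 members of that level had a median log2 ratio of -0.38, against -0.21 for protein-coding genes of that level. The 29 counted members under 1 FPKM lay on the other side of their background, at -0.13 against -0.30. Over the 22 single genes and 8 pathway medians, 220 of 318 values moved by less than the counting interval or not at all, and 98 by more. The 220 include values that a setting could not change. The 1.5-fold threshold alters no ratio (30 values), and a filter alters no single-gene ratio. Adding read-through rows (30 values, none moved by more) changed only MSH5 and the mismatch repair median. Under TPM rescaling 25 values moved by more and 5 did not, under upper-quartile scaling 23 and 7. With protein-coding scaling it was 17 and 13, and with median centring 16 and 14. With no replicates, variation between cultures is unknown and intervals widen at low counts, to 0.731 to 2.17 for BRCA2 with 27 and 33 counts.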
